A study of Mus musculus with 12 samples.

Results

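The Ly49 genes (symbols Klra) were followed across all 6 groups of a tumour experiment in mice. The members were 8 rows of the count table named for Ly49 receptors, Klra1, Klra3, Klra4, Klra5, Klra6, Klra7, Klra8 and Klra9, chosen by symbol and not by level. They are 8 of 14 rows with a Klra symbol and 8 of 54232 genes in the table. Klra10, which is annotated as protein-coding and lies among them on chromosome 6, is not a member and is given with the other Klra rows. All 8 passed the filter on low counts. MC38 colon adenocarcinoma cells were injected under the skin of each flank of C57BL/6N mice and the tumours were taken after 8 to 10 days. For a library 300 cells were sorted from digested tumour. These were natural killer (NK) cells, gated as CD45+, CD3ε- and NK1.1+, or CD8 T cells, gated as CD45+, CD3ε+ and CD8a+. Their polyadenylated RNA was sequenced by Smart-seq2, a full-length method for small inputs.

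The mice carried wild-type Tyk2 (WT), no Tyk2 (KO, Tyk2-/- in every cell) or Tyk2 with a lysine-to-glutamate change that leaves a kinase-inactive protein (KE). TYK2 is a Janus kinase that passes on signals of type I interferons, IL-12 and related cytokines. The 3 genotypes and 2 cell types give 6 groups of 2 libraries, age- and sex-matched, with no further treatment. The sources used here do not say whether the 2 libraries of a group came from separate mice, so p-values measure the spread between libraries, which may be technical. Nor do they say whether NK and CD8 libraries share mice or tumours.

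Ly49 receptors are lectin-like proteins on the surface of mouse NK cells that read MHC class I on other cells. Most are inhibitory, and carry a tyrosine motif that recruits the phosphatase SHP-1 (Ptpn6). These are Klra1 (Ly49A), Klra3 (Ly49C), Klra5 (Ly49E), Klra6 (Ly49F), Klra7 (Ly49G) and Klra9 (Ly49I). Klra4 (Ly49D) and Klra8 (Ly49H) are activating and signal through the adaptor DAP12 (Tyrobp), and Ly49H is known for recognising a mouse cytomegalovirus protein. Each NK cell expresses its own combination of the family, so that a bulk library holds the sum over many combinations.

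The members are near copies of each other, which bears on every level below, since the authors counted reads that map to 1 place only. All 8 genes lie on the minus strand of chromosome 6 (GRCm38), from Klra5 at chr6:129898996-129917650 to Klra1 at chr6:130363917-130386874, and no annotated gene overlaps any of them. The coding sequences of the 28 pairs were 76.8% to 95.9% identical, with Klra3 and Klra9 the closest pair. The stretch of 50 coding bases with the fewest different sequences among the 8 genes is shown first, because it holds pairs that a read of that length cannot separate. Capitals mark bases that differ from the most common base at that position among the 8 genes.
Klra3: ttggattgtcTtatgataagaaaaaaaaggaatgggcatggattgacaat (chr6:130327077-130327126)
Klra9: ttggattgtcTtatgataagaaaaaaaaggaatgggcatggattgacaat (chr6:130182398-130182447)
Klra1: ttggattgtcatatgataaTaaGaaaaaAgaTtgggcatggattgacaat (chr6:130372835-130372884)
Klra4: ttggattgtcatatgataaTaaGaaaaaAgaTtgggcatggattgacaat (chr6:130052979-130053028)
Klra5: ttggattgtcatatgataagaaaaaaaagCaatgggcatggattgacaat (chr6:129903553-129903602)
Klra6: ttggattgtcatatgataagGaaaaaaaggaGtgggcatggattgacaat (chr6:130016656-130016705)
Klra8: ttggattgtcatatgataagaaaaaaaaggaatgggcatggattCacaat (chr6:130118977-130119026)
Klra7: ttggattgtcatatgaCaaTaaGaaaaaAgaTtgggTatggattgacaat (chr6:130224099-130224148)
Here Klra3 and Klra9 were identical, as were Klra1 and Klra4, so that the 8 genes had 6 different sequences. The next stretch is the one whose closest pair differed most. Its pairs among these 8 genes differed by 3 to 22 bases. The pseudogenes, Klra10 and the rest of the genome were not in this alignment. Both stretches lie inside a single coding exon of each gene, and capitals mark the same thing.
Klra3: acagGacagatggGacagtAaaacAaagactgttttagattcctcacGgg (chr6:130333141-130333190)
Klra9: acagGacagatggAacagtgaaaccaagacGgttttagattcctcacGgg (chr6:130188636-130188685)
Klra1: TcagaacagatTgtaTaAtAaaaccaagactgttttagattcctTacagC (chr6:130377654-130377703)
Klra4: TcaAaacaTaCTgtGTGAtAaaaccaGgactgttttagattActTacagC (chr6:130062025-130062074)
Klra5: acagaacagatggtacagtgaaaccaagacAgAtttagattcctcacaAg (chr6:129908780-129908829)
Klra6: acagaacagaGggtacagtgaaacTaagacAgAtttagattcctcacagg (chr6:130022589-130022638)
Klra8: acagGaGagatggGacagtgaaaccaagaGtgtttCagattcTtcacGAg (chr6:130125056-130125105)
Klra7: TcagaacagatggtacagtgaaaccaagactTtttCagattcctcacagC (chr6:130228521-130228570)

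Over all exons, the share of windows of 50 bases, the length of the reads, found also in another gene was 33.1% for Klra8, 31.5% for Klra9, 20.7% for Klra3 and 12.3% for Klra7. It was 4.68% for Klra4, 3.15% for Klra1, 2.62% for Klra6 and 0.71% for Klra5. The partners were mostly family members: 230 of the 374 shared windows of Klra8 were found in the pseudogene Klra14-ps, all 155 of Klra7 in the pseudogene Klra13-ps, and 167 of the 402 of Klra9 in Klra3. A read from such a window maps to more than 1 place and was not counted, so the counts are lower limits, most of all for Klra8, Klra9 and Klra3. The windows of a gene are the same in every library.

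Libraries held 10378761 to 14732882 counts in genes, so that 3 counts, the limit used here for a level near 0, correspond to 0.204 to 0.289 counts-per-million (CPM). Values in CPM are counts scaled by the library's total. The sort was checked on markers. Ncr1 and Klrb1c, the receptors NKp46 and NK1.1, were at 813 to 2408 and 1028 to 2351 CPM in the NK libraries and at 0.982 to 1.96 and 1.41 to 4.84 CPM in the CD8 libraries. Cd8a was at 2.69 to 4.80 CPM in the NK and at 2603 to 3981 CPM in the CD8 libraries. Tyk2 itself did not separate the genotypes. Its level was 58.6 and 68.7 CPM in NK WT, 58.4 and 111.5 in NK KO, 125 and 86.3 in NK KE, 44.2 and 83.7 in CD8 WT, 61.0 and 75.2 in CD8 KO, and 59.1 and 44.8 in CD8 KE. A gene-wide count does not show which exons are read, so the genotype labels were not checked by it, and KO and KE below mean libraries so labelled. Markers of other cells differed between the NK libraries. For the myeloid markers this was so also between the 2 NK KO libraries. The 8 myeloid markers summed to 7450 and 6889 CPM in NK WT, 5073 and 23.1 in NK KO, and 55.6 and 232 in NK KE. The 6 ILC1 markers, of the innate lymphocytes that the NK1.1 gate also takes, summed to 209 and 216 CPM in NK WT, 459 and 512 in NK KO, and 500.2 and 528 in NK KE. The 6 CD8 T cell markers summed to 63.4 and 111 CPM in NK WT, 92.7 and 340.1 in NK KO, and 236 and 357 in NK KE. Within that sum Cd8a and Cd8b1 stayed at 2.69 to 4.80 and 1.49 to 2.43 CPM. Cd3g was at 14.2 and 52.2 CPM in NK WT, 18.2 and 124 in NK KO, and 57.5 and 180 in NK KE. In the edgeR comparisons of genotypes within NK described below, no gene of these lists passed, nor did any other gene. The part of other cells in any result below was not tested.

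In NK cells the family was abundant and its total nearly level. The 8 genes summed to 2372 and 2508 CPM in NK WT, 2768 and 2594 in NK KO, and 2760 and 2305 in NK KE. The 6 NK totals thus span 2305 to 2768 CPM. In the CD8 libraries the sum was 11.9 and 48.5 CPM in WT, with 14.6 and 4.31 for KO and 106 and 261 for KE. All 6 CD8 libraries lay below all 6 NK libraries, and the 2 KE libraries were the highest CD8 libraries. In such bulk samples, fewer cells with the receptor and less RNA per cell cannot be told apart.

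**Figure D1:**
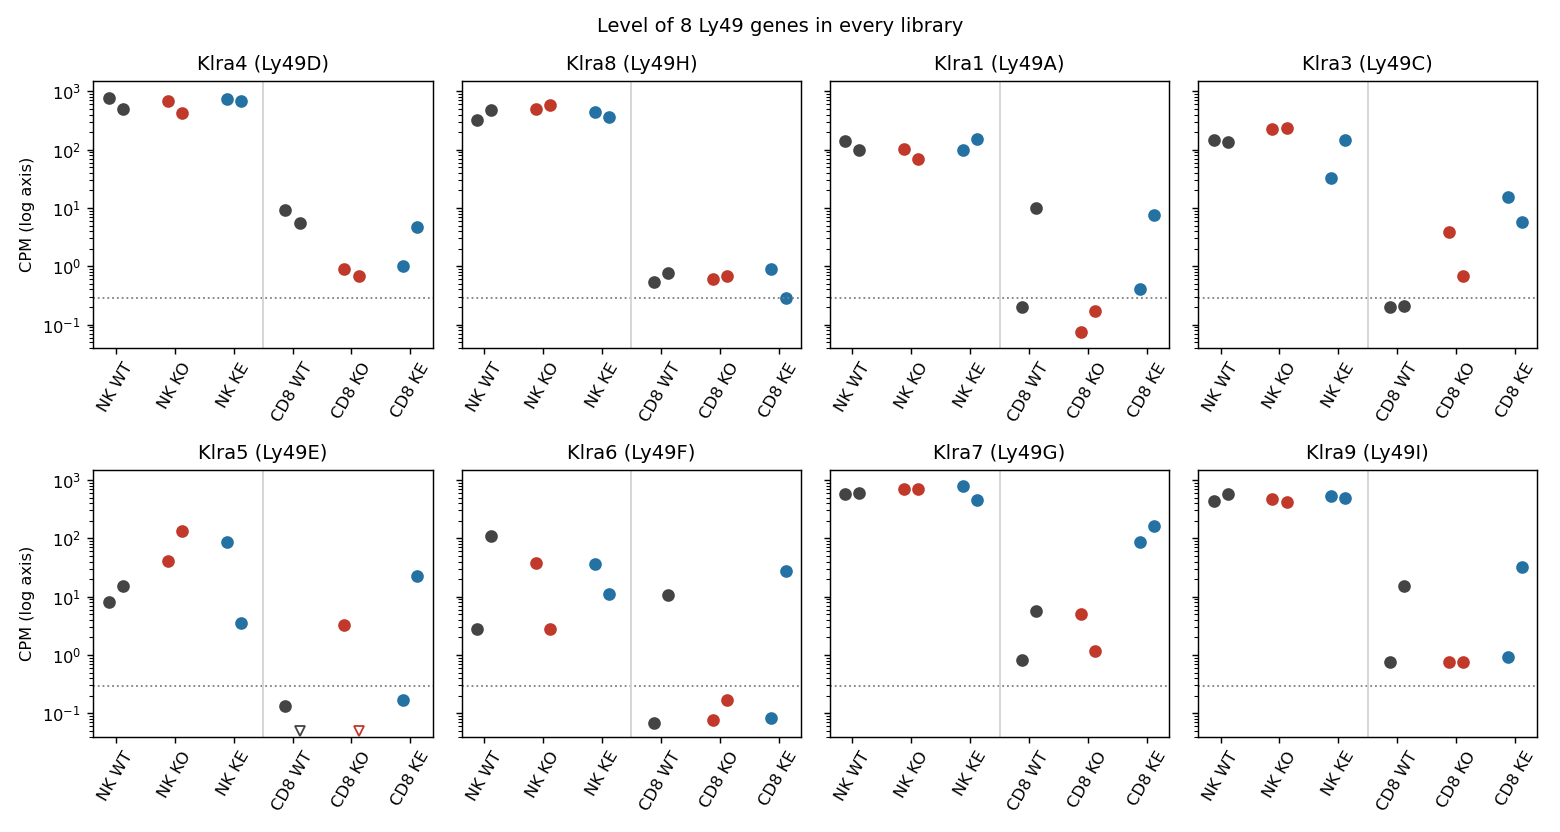
Level of each Ly49 gene in CPM (log axis) in the 12 libraries, 2 points per group, coloured by genotype. The dotted line is 3 counts in the smallest library (0.289 CPM) and open triangles are libraries with 0 counts, drawn at the foot of the axis. Klra8 was at 319 to 593 CPM in the NK libraries and under 1 CPM in every CD8 library, whereas Klra7 reached 86.9 and 160 CPM in the CD8 KE libraries.

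The activating receptors are described first. Klra4 was at 753 and 501 CPM in NK WT, 684 and 425 in NK KO, and 744 and 692 in NK KE. In the CD8 libraries it was at 9.23 and 5.57 CPM in WT, with 0.904 and 0.676 for KO and 0.995 and 4.63 for KE. Every NK library was thus far above every CD8 library, and within CD8 the WT libraries were the highest. Klra8 was at 319 and 482 CPM in NK WT, 491 and 593 in NK KO, and 438 and 358 in NK KE. The CD8 WT libraries held 8 and 11 counts of it, those of KO 8 and 8 and those of KE 11 and 4, or 0.281 to 0.912 CPM. Klra8 was the member with the smallest range over the CD8 libraries. Both genes together made up 39.2% to 45.5% of the family's counts in the NK libraries.

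Among the inhibitory receptors, Klra7 and Klra9 were the most abundant in NK cells. Klra7 was at 568 and 601 CPM in NK WT, 714 and 709 in NK KO, and 781 and 447 in NK KE. In CD8 it was at 0.815 and 5.64 CPM in WT, with 5.05 and 1.18 for KO and 86.9 and 160 for KE. The 2 CD8 KE libraries stood apart from the other 4, with 1048 and 2276 counts against 12 to 80. Klra9, which binds the H-2K class I molecule of this mouse strain, was at 432 and 567 CPM in NK WT, 469 and 426 in NK KO, and 541 and 499.9 in NK KE. In CD8 it was at 0.747 and 15.5 CPM in WT, with 0.754 and 0.761 for KO and 0.912 and 32.7 for KE. Of the CD8 libraries, the second WT and the second KE library alone were above 1 CPM, so that the groups overlapped.

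Klra3 and Klra1 were at intermediate levels. Klra3, whose product also binds H-2K, was at 147 and 135 CPM in NK WT, 229 and 234 in NK KO, and 33.2 and 144 in NK KE. In CD8 it was at 0.204 and 0.212 CPM in WT (3 counts each), with 3.92 and 0.676 for KO and 15.5 and 5.68 for KE. The KO libraries were above WT in both cell types, and in NK the first KE library was the lowest of the 6. Klra1, which binds H-2D molecules of other strains, was at 141 and 97.8 CPM in NK WT, 101 and 70.3 in NK KO, and 98.8 and 149 in NK KE. In CD8 it was at 0.204 and 10.2 CPM in WT, with 0.0754 and 0.169 for KO and 0.415 and 7.58 for KE. Again 1 WT and 1 KE library held nearly all of its CD8 counts, and 3 of the 6 CD8 libraries were at or under 3 counts.

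Klra5 and Klra6 were the low and uneven members. Klra5 was at 8.16 and 15.5 CPM in NK WT, 41.0 and 133 in NK KO, and 88.1 and 3.53 in NK KE. The CD8 WT libraries held 2 and 0 counts of it, those of KO 43 and 0 and those of KE 2 and 322. Klra6 was at 2.75 and 109 CPM in NK WT, 37.6 and 2.83 in NK KO, and 36.7 and 11.1 in NK KE. The CD8 WT libraries held 1 and 150 counts of it, those of KO 1 and 2 and those of KE 1 and 390. For both genes the CD8 KE libraries differed by over 100 counts from each other, and the highest CD8 library lay above the lowest NK library.

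Evenness in NK cells set the members apart from each other. The highest NK library exceeded the lowest by 1.33 times for Klra9, 1.75 for Klra7, 1.77 for Klra4, 1.86 for Klra8 and 2.12 for Klra1, by 7.05 times for Klra3, and by 37.8 and 39.7 times for Klra5 and Klra6. Among 3863 genes with a median of at least 50 CPM in the NK libraries, 2.15% had a smaller range than Klra9 and 92.0% a smaller range than Klra3. Klra5 and Klra6, with medians of 28.2 and 23.9 CPM, lie below that level. Klra4, Klra7, Klra8 and Klra9 together gave 83% to 90.7% of the family's counts in every NK library.

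**Figure D2:**
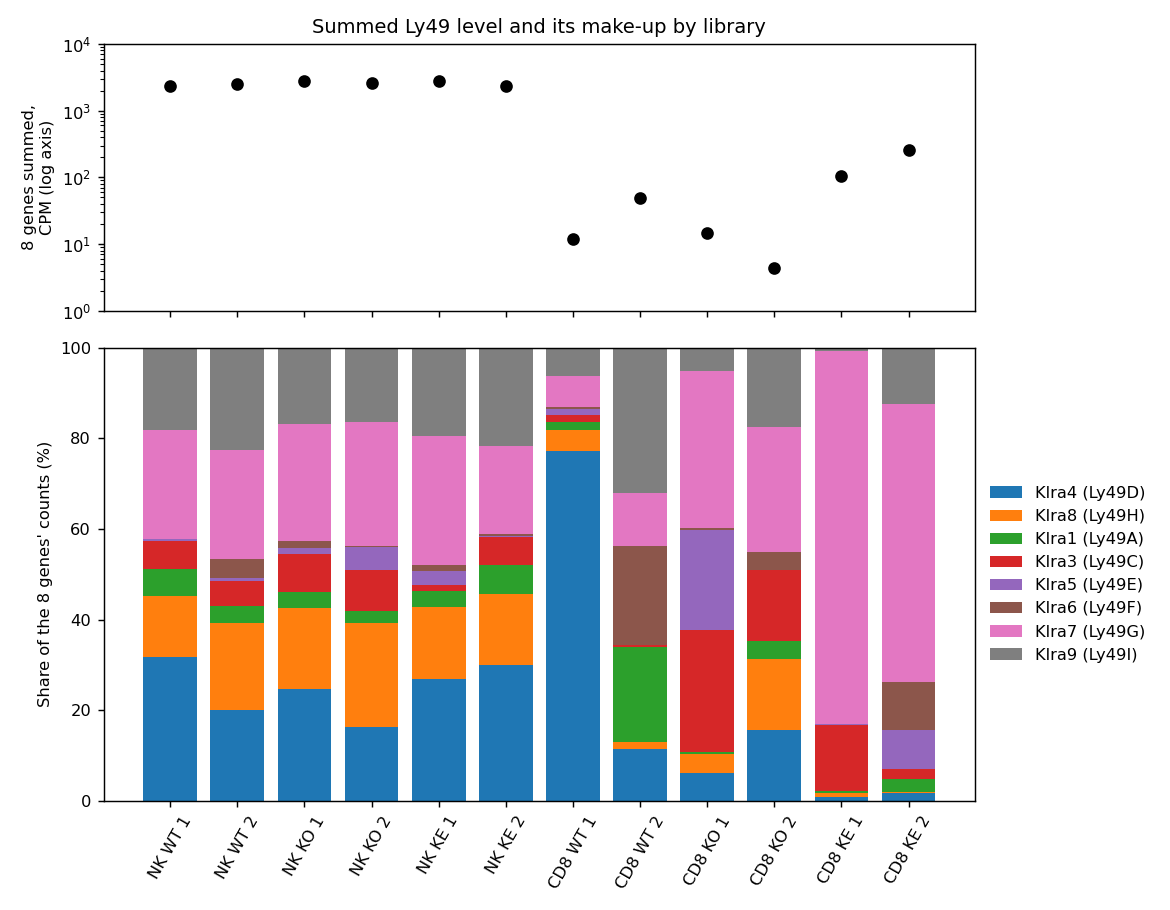
The upper panel gives the 8 genes' summed level in CPM (log axis) and the lower panel the share of each gene in those counts (%) for the 12 libraries. NK libraries held 2305 to 2768 CPM, with 83% to 90.7% of it from Klra4, Klra7, Klra8 and Klra9, against 50% to 94.9% in the CD8 libraries.

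The make-up of the CD8 libraries was set by different genes in each. Klra4 gave 77.3% of the family's 176 counts in the first CD8 WT library and 11.5% of 687 in the second, where Klra9 gave 32.0%. Klra7 gave 34.5% of 194 and 27.4% of 51 counts in CD8 KO. In CD8 KE it gave 82.1% of 1277 and 61.3% of 3713 counts, and the activating genes together gave 1.80% and 1.89%. Where Klra7 was at 86.9 and 160 CPM, Ncr1 was at 1.33 and 0.982 CPM and Klra8 at 0.912 and 0.281 CPM, against 1.48 to 1.96 and 0.543 to 0.776 CPM in the other 4 CD8 libraries. Klrb1c was at 1.41 and 4.84 CPM there, against 2.10 to 2.79 CPM in the other 4, and Klre1 at 223 and 322 CPM against 113 to 218. The part of NK cells in the Klra7 value was not tested. The 7 NK markers summed to 2219 and 3715 CPM in CD8 KE, 8126 and 2861 in CD8 WT, 2970 and 4094 in CD8 KO, and 13654 to 16980 in NK. Several of these markers, such as Klrd1 and Gzma, are also made by activated CD8 T cells. Trdc, the constant gene of the γδ T cell receptor, was at 9.71 and 12.5 CPM in CD8 WT and at 0.0846 to 0.249 CPM in CD8 KO and KE. In the NK libraries Trdc was far higher, at 109 to 334 CPM. The γδ T cell markers Sox13 and Il17a had 0 counts in every library. The part of γδ T cells in the CD8 values was not tested either.

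Between genes, levels need a length. In RPKM, that is CPM per 1000 bases of exon, the medians over the 6 NK libraries were 553 for Klra4, 518 for Klra7, 390 for Klra8, 379 for Klra9, 118 for Klra3, 59.9 for Klra1, 21.9 for Klra5 and 21.4 for Klra6. The ranges of neighbours in this order overlapped except between Klra9, at 333 to 443, and Klra3, at 26.9 to 189. CPM per 1000 windows of 50 bases that no other gene holds gave 609 for Klra8, 604 for Klra4, 593 for Klra7 and 554 for Klra9. The first 4 members then came within a narrow span, with Klra8 first, ahead of Klra4 and Klra7. The lower members were at 149 for Klra3, 63.7 for Klra1, 23.0 for Klra6 and 22.5 for Klra5 on this scale, so that only the order within the top 4 and within the last pair changed.

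**Figure D3:**
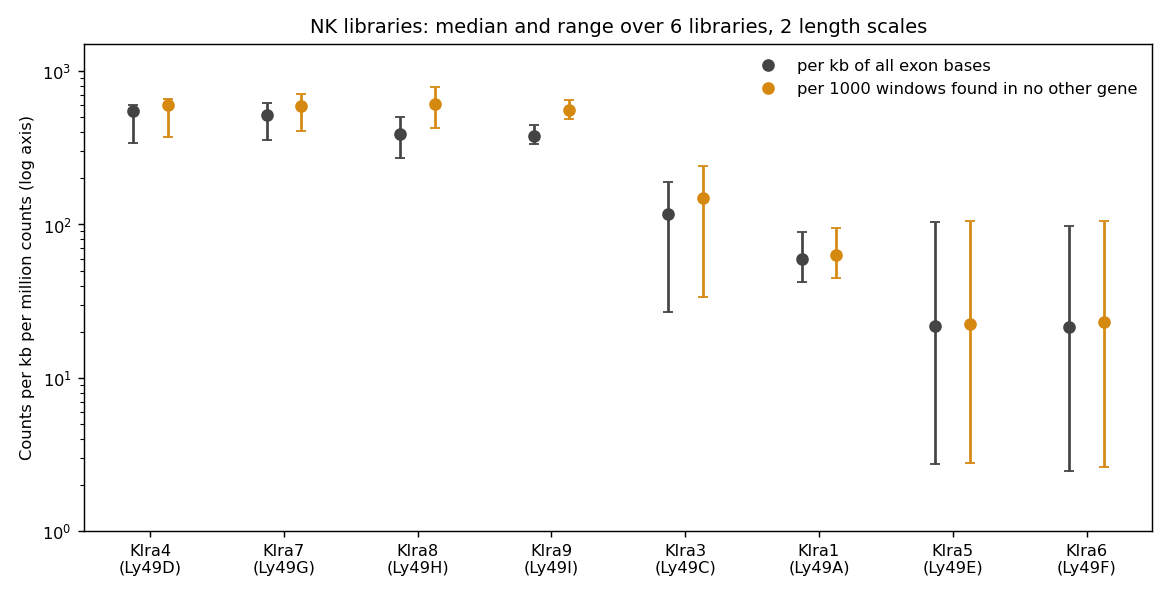
Median (points) and range (bars) over the 6 NK libraries of each gene's level, as CPM per 1000 exon bases (grey) or per 1000 windows of 50 bases found in no other gene (orange), on a log axis. Klra8 moved from 390 to 609 and Klra9 from 379 to 554, while Klra5 stayed near 22.

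NK and CD8 cells were then compared within each genotype, with edgeR's quasi-likelihood test over 13279 genes. A gene was called at a Benjamini-Hochberg adjusted p (FDR) under 0.05 and a log2 fold change of at least 1. In WT, 4 of 8 members were called, all higher in NK. Across all genes 0.339% were called higher in NK in WT, 0.316% in KO and 0.339% in KE. Klra8 was higher by 9.15 on the log2 scale (SE 0.54, edgeR FDR 1.8e-05) and Klra3 by 9.27 (SE 1.21, edgeR FDR 0.0048). Klra7 was higher by 7.45 (SE 0.97, edgeR FDR 0.0048) and Klra4 by 6.32 (SE 0.69, edgeR FDR 0.0017). The 4 others did not pass in edgeR: log2 fold changes were 5.90 for Klra9 (SE 1.503, edgeR FDR 0.14), 7.15 for Klra5 (SE 2.91, edgeR FDR 0.44), 4.50 for Klra1 (SE 1.53, edgeR FDR 0.33) and 3.34 for Klra6 (SE 2.57, edgeR FDR 0.69). DESeq2 called 7 members in WT, beside 803 of all genes. It added Klra9 (DESeq2 FDR 0.0016), Klra1 (0.011) and Klra5 (0.018). The median over the members was 6.74, against 0 over all genes tested.

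Klra3 was not called without the first (9.29, SE 1.76, edgeR FDR 0.079) or the second CD8 WT library (9.28, SE 1.75, edgeR FDR 0.072), where its fold change stayed the same and its SE was larger. Klra7 was called whichever of the 4 libraries was left out, and was not called with only the 2 groups in the fit (7.46, edgeR FDR 0.061). Its log2 fold change was 6.67 without the first and 9.37 without the second CD8 WT library, and that of Klra6 was -0.96 without the second NK WT library. Without the second CD8 WT library Klra9 was at 9.27, Klra1 at 9.04 and Klra6 at 9.39, and without the first Klra5 was at 10.25, none of them called. Klra8 and Klra4 were called in WT whichever library of the comparison was left out. Klra5 had 2 counts in CD8 WT, and its ratio of summed CPM was 172 (95% exact interval for counting error only, 47.3 to 1430). Klra3 had 6, and its ratio was 678 (311 to 1850). Fitted fold changes against groups so near 0 depend on the prior count and are not bounds.

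In KO, 5 members were called, all higher in NK: Klra8 by 9.62 (SE 0.55), Klra4 by 9.34 (SE 0.80), Klra9 by 9.10 (SE 1.77), Klra7 by 7.72 (SE 0.98) and Klra3 by 6.54 (SE 1.04), on the log2 scale. Their edgeR FDR ran from 1.3e-05 for Klra8 to 0.045 for Klra9. DESeq2 called 7 members in KO, beside 775 of all genes. It added Klra1 (DESeq2 FDR 7.8e-08) and Klra6 (0.020). Klra9 was not called with any of the 4 libraries left out (edgeR FDR 0.079 to 0.32), nor with a replicate block (edgeR FDR 0.055), although its fold change stayed at 9.01 to 9.18 and at 9.23, while the SE ran from 1.91 to 2.62 over the left-out libraries. Klra3 was not called without the second NK KO library (6.54, edgeR FDR 0.054), without the second CD8 KO library (5.81, edgeR FDR 0.085) or with only these groups in the fit (0.098), and was 8.35 without the first CD8 KO library. Klra7 was 9.17 without the first CD8 KO library and 7.06 without the second. Klra1 and Klra6 had 3 summed counts each in CD8 KO, with log2 fold changes of 9.28 (SE 1.99, edgeR FDR 0.070) and 7.20 (SE 3.15, edgeR FDR 0.50) and ratios of summed CPM of 714 (95% exact interval 244 to 3467) and 167 (56.9 to 813). Those intervals cover counting error only. Klra6 was at 4.34 without the first and 8.10 without the second NK KO library, and without the second CD8 KO library it was at 7.83 and Klra1 at 9.91.

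In KE, edgeR called 2 members, the activating ones. DESeq2 called 6 members, beside 758 of all genes. It added the inhibitory genes Klra1 (DESeq2 FDR 0.0052), Klra3 (0.014), Klra9 (0.019) and Klra7 (0.022). Klra8 was higher in NK by 9.28 (SE 0.55, edgeR FDR 1.7e-05) and Klra4 by 7.85 (SE 0.74, edgeR FDR 0.00058). Both were called whichever library was left out, with Klra4 at 7.13 without the first and 9.41 without the second CD8 KE library, and Klra8 at 10.28 and 8.69. Klra7 had a log2 fold change of 2.19 (SE 0.76, edgeR FDR 0.33) and Klra3 of 2.96 (SE 0.88, edgeR FDR 0.23). The latter was 3.66 without the first and 1.55 without the second NK KE library, and 3.81 without the first CD8 KE library. Klra9 and Klra1 were at 4.81 each (SE 1.42 and 1.56, edgeR FDR 0.23 and 0.30), and at 9.07 and 8.13 without the second CD8 KE library. Over the 3 genotypes, 6 of 8 members had all 6 NK libraries above all 6 CD8 libraries in CPM, all but Klra5 and Klra6, where 2.28% of all genes did.

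**Figure D4:**
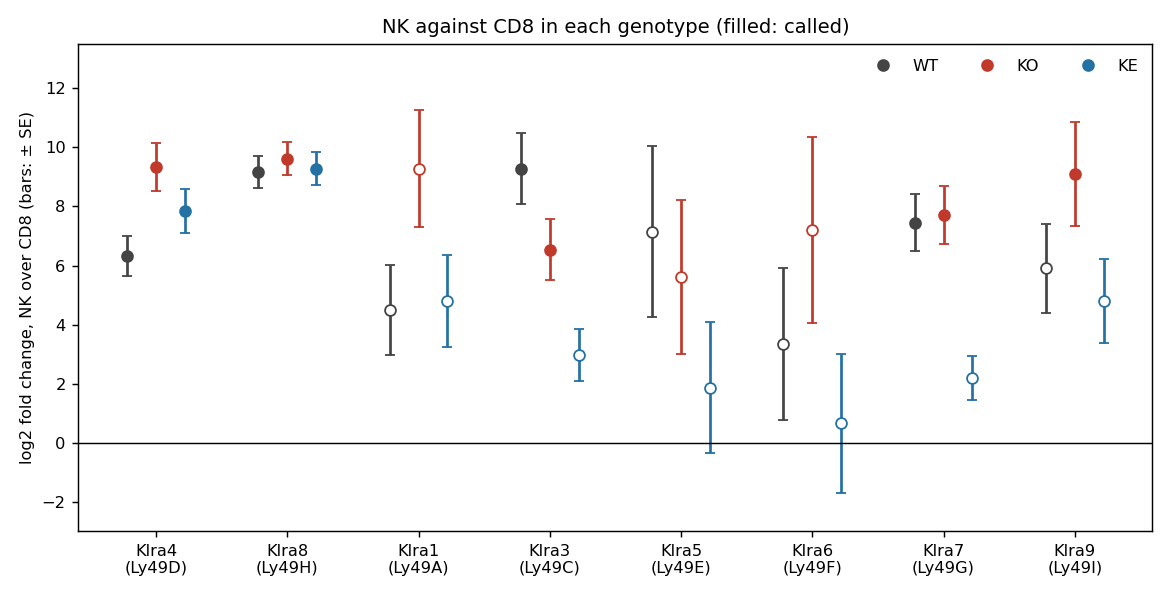
The log2 fold change of NK over CD8 libraries for each Ly49 gene in WT, KO and KE, with bars of ± SE from edgeR. Filled points were called. Klra8 lay between 9.15 and 9.62 in the 3 genotypes, whereas Klra7 was at 7.45 in WT, 7.72 in KO and 2.19 in KE.

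The question of the study, whether TYK2 or its kinase activity sets expression, was asked of the members in each cell type. In NK cells no member was called by edgeR in KO against WT, KE against WT or KO against KE, where 0% of all genes were called (0 of 13279 in each). At an unadjusted edgeR p under 0.05 there were 0 members in each comparison, against 837, 800 and 506 of all genes, and DESeq2 called 0 members too, against 353, 375 and 198 genes (2.66%, 2.82% and 1.49%). The log2 fold changes of the 8 members ran from -1.53 (Klra6) to 2.78 (Klra5) in KO against WT, from -1.30 (Klra6) to 1.87 (Klra5) in KE against WT, and from -0.54 (Klra1) to 1.38 (Klra3) in KO against KE. Their medians were -0.04, -0.04 and -0.01. For Klra8, the member with the smallest SE, the difference was 0.34 (SE 0.37) in KO and -0.10 (SE 0.37) in KE, and for Klra4 it was -0.28 (SE 0.55) and 0.09 (SE 0.54). The SE comes from 1 estimate of spread per gene over all 12 libraries, so in NK it also holds the scatter of the CD8 libraries. Klra9, whose highest NK library exceeded the lowest by 1.33 times, had an SE of 1.21 in KO and in KE against WT. With only the compared groups in the fit no member was called either. Differences of the size seen for Klra8 and Klra4 were not resolved by this fit with 2 libraries a group.

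The NK KO and WT libraries did not overlap for 4 members, Klra3, Klra5, Klra7 and Klra8, each higher in KO, where 35.5% of all genes did not overlap. In KE against WT all 8 members overlapped, where 35.7% of all genes did not.

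In CD8 cells no member was called by edgeR in KO against WT, where 0.0527% of genes were (7 of 13279), in KE against WT (0.0828%, 11 genes) or in KO against KE (0%). At an unadjusted edgeR p under 0.05 there were 4, 4 and 5 members, against 636, 738 and 482 of all genes. DESeq2 called 2, 3 and 1 members, where it called 1.65%, 2.39% and 1.14% of all genes (219, 318 and 152). Klra7 had the lowest FDR, with a log2 fold change of 5.24 in KE against WT (SE 0.88, unadjusted edgeR p 0.00012, FDR 0.084) and -5.32 in KO against KE (SE 0.88, FDR 0.57, DESeq2 FDR 2.7e-11). The latter was -6.75 without the first and -4.64 without the second CD8 KO library. Its FDR in KE against WT ran from 0.072 to 0.78 over the edgeR alternatives that kept a filter, and the call was made by DESeq2 (FDR 5.7e-11) and by edgeR with no filter on low counts (FDR 1.4e-30). The difference was 4.44 and 7.15 without the first and the second CD8 WT library. Klra3 was at 5.54 in KE against WT (SE 1.06, edgeR FDR 0.14, DESeq2 FDR 1.8e-05), Klra5 at 7.15 (SE 2.91, edgeR FDR 0.79, DESeq2 FDR 0.041) and Klra4 at -1.43 (SE 0.58, edgeR FDR 0.79). Klra3 was at 4.69 without the first CD8 KE library. The Klra5 value rests on 1 KE library with 322 counts, and without it was 1.09, and it was 10.24 without the first CD8 WT library. Klra4 was at -0.71 without the first and -2.96 without the second CD8 KE library, and at -0.97 without the first CD8 WT library.

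In KO against WT, Klra4 was at -3.30 (SE 0.66, edgeR FDR 0.26), from 136 and 79 counts in WT and 12 and 8 in KO. Klra3 was at 3.35 (SE 1.02), Klra9 at -3.46 (SE 1.46) and Klra1 at -5.36 (SE 1.76), each with an edgeR FDR of 0.89. Klra3 was at 1.56 without the first and 4.10 without the second CD8 KO library. Klra9 and Klra1 followed the second WT library, with 220 and 144 counts, and were at -0.11 and -0.83 without it. The 2 members that DESeq2 called in KO against WT, where it called 1.65% of all genes, were Klra1 (FDR 0.024) and Klra4 (FDR 3.7e-05). The groups of libraries did not overlap for 3 members in CD8 KO against WT, Klra1, Klra3 and Klra4, where 32.4% of all genes did not. In KE against WT they did not overlap for 4 members, Klra3, Klra4, Klra5 and Klra7, where 32.3% of all genes did not. In KO against KE the other members at an unadjusted p under 0.05 were Klra1 at -5.01 (SE 1.75), Klra3 at -2.20 (SE 0.87), Klra4 at -1.87 (SE 0.65) and Klra9 at -4.52 (SE 1.501), each with an edgeR FDR of 1. Without the second CD8 KE library these were -1.72 for Klra1, -0.34 for Klra4 and -0.28 for Klra9, and Klra3 was -3.99 without the first CD8 KO library, -1.45 without the second and -1.34 without the first CD8 KE library. KO and KE were compared with the same WT libraries.

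**Figure D5:**
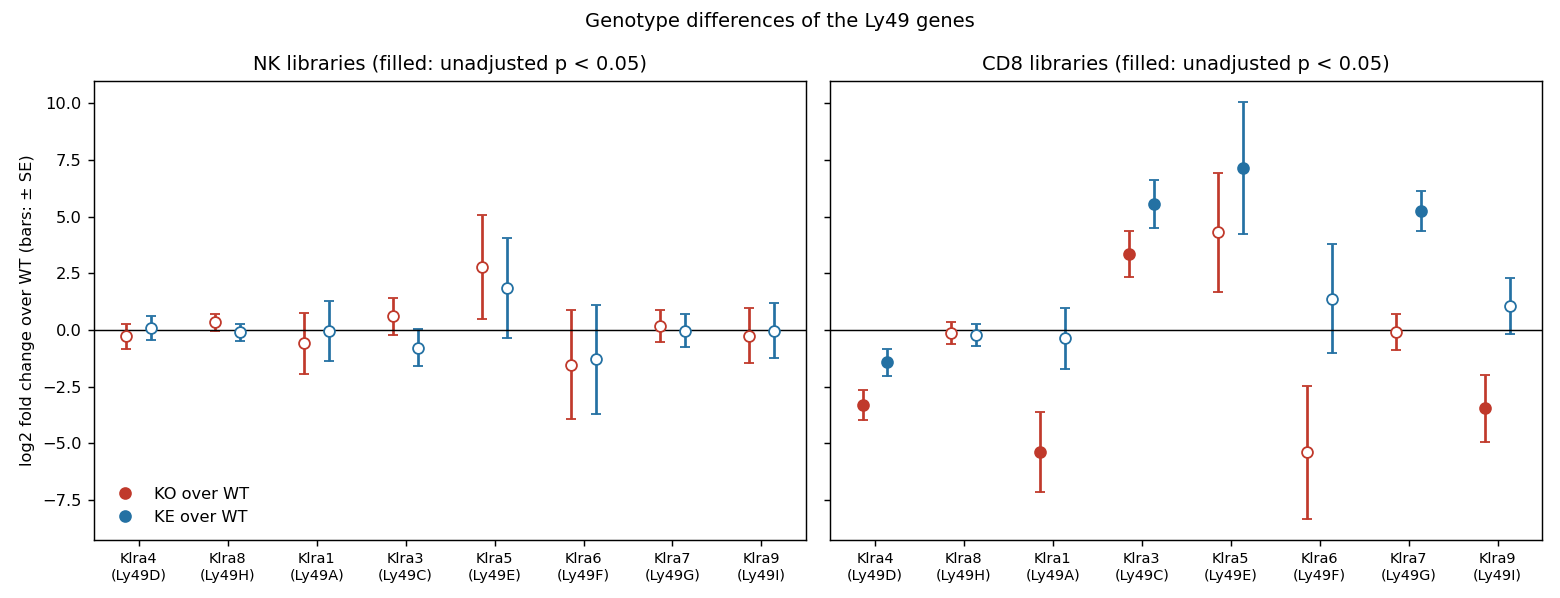
The log2 fold change of KO over WT (red) and KE over WT (blue) in NK (left) and CD8 libraries (right), with bars of ± SE from edgeR. Filled points had an unadjusted p under 0.05 and none was called by edgeR, whereas DESeq2 called 2 members in CD8 KO and 3 in CD8 KE against WT. Values in NK ran from -1.53 to 2.78 and those in CD8 from -5.40 to 7.15.

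Whether a genotype difference was itself different in NK and CD8 was tested as an interaction. No member was called by edgeR for KO (where 0.00753% of genes were, 1 gene) or for KE (0%). At an unadjusted edgeR p under 0.05 there was 1 member for KO, Klra4, with a log2 difference in NK minus that in CD8 of 3.02 (SE 0.84, edgeR FDR 0.90), and 2 for KE. These were Klra7 at -5.26 (SE 1.10) and Klra3 at -6.31 (SE 1.33), with an edgeR FDR of 0.39 each, against 703 and 824 of all genes. Klra7 was at -4.45 without the first and -7.16 without the second CD8 WT library, and Klra3 at -5.61 without the first NK KE, -7.72 without the second NK KE and -5.46 without the first CD8 KE library. DESeq2 called 1 member for KO, Klra4 (FDR 0.024), and 2 for KE, Klra3 (FDR 0.00038) and Klra7 (FDR 1.7e-05), where it called 1.37% and 1.97% of all genes (182 and 261).

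Because the study concerns a cytokine kinase, the 250 bases before each RefSeq transcription start (GRCm38.p6) were searched on both strands for short motifs. All 8 members had a window, 10 in all. The core of the interferon response element, GAAA on either side of any pair of bases, was in none of them, against 2.98% of 32851 windows of all genes, and the T-box letters AGGTGTGA were in none, against 1.12%. The STAT element TTCNNNGAA was in 1 window, of Klra7, against 7.02% of all windows, and the RUNX letters TGTGGT in 1, of Klra1, against 14.0%. The Klra7 window that holds the STAT match is shown. It is read on the minus strand at chr6:130231688-130231937 and the STAT match, 189 bases before that start, is in capitals.
Klra7: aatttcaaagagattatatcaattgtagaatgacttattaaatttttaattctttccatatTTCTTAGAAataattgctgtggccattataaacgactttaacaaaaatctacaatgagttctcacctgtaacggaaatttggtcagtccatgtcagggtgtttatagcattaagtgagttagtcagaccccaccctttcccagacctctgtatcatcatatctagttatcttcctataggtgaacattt
This window lies inside the annotated Klra7 gene, chr6:130218605-130233322. The other Klra7 window, chr6:130233323-130233572, lies directly before the 5' end of that gene and held none of the 4 motifs. A match of letters is a description and not a bound site.

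The other 6 Klra rows were mostly pseudogenes and minor receptors. The transcribed pseudogene Klra13-ps, the one that shares windows with Klra7, was at 382 to 566 CPM in the NK libraries, near the levels of Klra9. In CD8 it was at 42.6 and 4.59 CPM in WT, with 0.528 and 2.96 for KO and 0.498 and 0.140 for KE. Its highest CD8 library, the first WT library with 628 counts, had 12 counts of Klra7, and the 2 KE libraries with 1048 and 2276 counts of Klra7 had 6 and 2 of it. In NK against CD8 the log2 fold change of Klra13-ps was 7.93 in KO (edgeR FDR 0.0096) and 10.51 in KE (edgeR FDR 0.0058), both called, and 4.30 in WT (edgeR FDR 0.090). Klra14-ps, which shares windows with Klra8, had 1259 to 2430 counts in the NK and 0 to 5 in the CD8 libraries, and was called in all 3 genotypes. Klra10 had 88 to 268 counts in NK and 0 to 9 in CD8. Klra2, a receptor known from myeloid cells, had 499 and 1154 counts in NK WT, with 696 and 0 for KO and 148 and 5 for KE, and in CD8 2 and 1 counts in WT, with 130 and 0 for KO and 65 and 0 for KE. Klra11-ps had 0 to 90 counts, and Klra17 had 39 counts in 1 NK KO library and 0 elsewhere.

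The signalling partners were read from fixed lists. Of 11 adaptors and kinases of activating receptors, 1 was called higher and 1 lower in NK than in CD8 of WT, and 3 higher and 1 lower in KO and in KE. Of all genes 0.437%, 0.587% and 0.437% were called lower in NK in WT, KO and KE, beside the 0.339%, 0.316% and 0.339% called higher. Tyrobp, the adaptor of Ly49D and Ly49H, was at 1678 to 2555 CPM in the NK and 8.06 to 14.9 CPM in the CD8 libraries, and higher in NK WT by 7.61 (SE 0.43, edgeR FDR 1.5e-05). Myeloid cells also make Tyrobp. It was at 1870 and 2030 CPM in NK WT, 2555 and 1782 in NK KO, and 1678 and 2036 in NK KE, where the myeloid markers summed to 7450 and 6889, 5073 and 23.1, and 55.6 and 232 CPM. The part of myeloid RNA was not tested. Syk, a kinase recruited by Tyrobp, and Plcg2, a phospholipase downstream of it, were higher in NK than in CD8 of KO by 10.42 and 9.86 and of KE by 9.62 and 8.26. In WT, where they were not called, the log2 fold changes were 7.75 (edgeR FDR 0.079) and 6.79 (edgeR FDR 0.075). Their means over the 3 NK groups were 72.8 to 74.9 CPM for Syk and 79.9 to 129 CPM for Plcg2, against 0 to 1.90 CPM over the CD8 libraries. Lat, the adaptor of T cell receptor signalling, was lower in NK in all 3 genotypes, with log2 fold changes of -3.71 in WT, -2.90 in KO and -2.90 in KE. Hcst, which encodes DAP10, was at 153 to 311 CPM in NK and 213 to 409 CPM in CD8 and was not called.

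Of the 3 phosphatases, none was called by edgeR in any comparison, and 0 to 1 were at an unadjusted p under 0.05. Ptpn6 was at 157 to 743 CPM in NK and 271 to 801 CPM in CD8, with a log2 fold change of 0.08 in WT (SE 0.50). The class I ligands H2-K1, H2-D1 and B2m were not called in any comparison either. In NK KO against WT their log2 fold changes were -0.42 (SE 0.17), -0.50 (SE 0.18) and -0.49 (SE 0.13), all at an unadjusted edgeR p under 0.05 and with an edgeR FDR of 0.77, 0.76 and 0.58. In NK KE against WT they were -0.28, -0.49 and -0.40, and the NK WT libraries were also the ones with the most myeloid RNA, whose part was not tested. In CD8 KO and in CD8 KE against WT 1 of the 3 was lower at an unadjusted edgeR p under 0.05. B2m was at 10254 and 11190 CPM in CD8 WT, 8881 and 8292 in CD8 KO, and 7972 and 8989 in CD8 KE. H2-D1 was at 4525 and 5159 CPM in CD8 WT and at 4602 and 5181 in CD8 KE. The 10 transcription factors tied to NK receptor expression, such as Tbx21 and Eomes, gave 0 calls by edgeR in every comparison and 0 to 3 genes at an unadjusted p under 0.05. In NK KO and in NK KE against WT there were 2, both lower, against 837 and 800 of all genes. Ets1 was at 694 and 459 CPM in NK WT, 167 and 331 in NK KO, and 296 and 209 in NK KE. Zeb2 was at 88.8 and 91.2, 39.3 and 19.6, and 27.4 and 27.9 CPM. Tcf7 went the other way, at 100 and 158, 223 and 302, and 167 and 192 CPM.

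The 5 genes whose level followed that of the summed family most closely over the 12 libraries, of 13271 compared, were Lyn, Fcer1g, Itga2, Trdv2-2 and Klri2. The root mean square distance of their centred log2 CPM was 0.897, 0.948, 1.10, 1.21 and 1.24. Itga2 encodes the integrin seen by the DX5 antibody to NK cells, Fcer1g an adaptor of Fc receptors and Lyn a Src-family kinase. The 12 libraries share 2 cell types, and the family's profile is mostly its difference between them, so nothing particular to the family is read from the list.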

How the data were processed

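RNA of 12 libraries in 6 groups of 2 was used. Raw counts per gene were deposited by the authors, who trimmed reads with Trimmomatic, aligned them with STAR to GRCm38/mm10 and counted reads that map once and lie in exons. Counts were tested as deposited with edgeR 4.0.16 in R 4.3.3: TMM scaling, 1 mean per group over all 12 libraries, robust quasi-likelihood test, and a filter that kept the 13279 of 23707 counted genes whose normalized counts averaged 10 or more. The SE is the log2 fold change divided by the root of F. DESeq2 1.42.0 and the settings in the closing section were alternatives. The procedure was tested on simulated data. Rows without a gene symbol numbered 153 and stayed in. Exons were taken from a later GENCODE release of the same build and promoters from RefSeq.

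The members and lists were chosen with earlier results of these data known. All 8 members are given by library, with a fold change for all in NK against CD8 of WT, and elsewhere for those at an unadjusted p under 0.05. From the partner lists the called genes and 6 fixed ones are named. Ets1, Zeb2 and Tcf7 were added after their levels were seen. Libraries of a group differed beyond sampling noise (chi-square per degree of freedom 118 to 171). Intervals and the limit of 3 counts cover counting error only.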

Additional observations from a re-analysis of the deposited data

How the results depend on the processing

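The number of members called depended on the filter and the tool, and the cause was not tested. With no filter on low counts, 7, 8 and 6 members were called in NK against CD8 of WT, KO and KE, 4 in KO against WT of CD8, 4 in KE against WT and 4 in KO against KE, and 3 and 2 in the interactions for KO and KE. With DESeq2 there were 7, 7 and 6 in WT, KO and KE of NK against CD8, beside 803, 775 and 758 of all genes, 2, 3 and 1 in the same CD8 comparisons, and 1 and 2 in the interactions. Over all genes, the main counts of 0 to 120 became 82 to 537 with no filter and 152 to 803 with DESeq2. Leaving out 1 library gave 3 to 4 members in NK against CD8 of KO, with 3 without the second NK KO or the second CD8 KO library, and 3 to 4 in WT. For Klra6 in NK against CD8 of WT the log2 fold change ran from -0.96, without the second NK WT library, to 9.39. No member was called in a genotype comparison within NK under any alternative run.

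Same-numbered libraries did not deviate together: the correlation of their deviations over 15 pairs of groups ran from -0.025 to 0.038. With the replicate number as a block 4, 4 and 2 members were called in NK against CD8 of WT, KO and KE and 0 in each genotype comparison and interaction. The planned count of windows that occur once in the genome was not run, as no genome was used here; the window scale was chosen after seeing the data. With 2 libraries a group, single libraries decide many CD8 values of Klra1, Klra3, Klra4, Klra5, Klra6, Klra7 and Klra9. Counts of Klra1, Klra3, Klra5 and Klra6 were at or under the limit of 3 in 2 to 4 of the 6 CD8 libraries.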
